A study of Mus musculus with 6 samples.

Results

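P2X receptors are channels that open when extracellular ATP binds, and acid-sensing ion channels (ASICs) are channels that open when extracellular pH falls. The genes P2rx2 to P2rx7 and Asic1 to Asic4, 10 of the 54532 genes in the deposited table, were chosen by gene name. They were followed in RNA-seq counts from samples labelled sciatic nerve, taken at postnatal day 3 (P3) from control and Dok6 mutant pups. All 10 were among the 17099 genes that passed the filter on low counts. P2rx3 rose 13.5-fold in the mutants, Asic3 rose 4.75-fold and P2rx7 rose 1.93-fold. P2rx6 and Asic4 fell, and the other 5 genes did not pass the test. With each mouse left out in turn, P2rx3 passed in 5 of 6 fits, Asic4 in 4, Asic3 in 2, P2rx7 in 1 and P2rx6 in 0. Without control mouse 2 none of the 10 passed.

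Dok6 codes for an adaptor protein that acts downstream of receptor tyrosine kinases, and the study compared the genotypes to look for changes in genes linked to myelination and in pathways downstream of Dok6. There were 3 control mice, labelled WT, and 3 Dok6 mutant mice, labelled Dok6 KO, with 1 library per mouse, all at P3 and all on the C57BL/6 background. The mutants descend from a cross of floxed Dok6 mice, with loxP sites around exon 3, to EIIA-cre mice, in which Cre acts in the early fertilized egg, so the deletion is not limited to a cell type. Sex was not distinguished, and the controls are described as littermates of the mutants, without saying which mice shared a litter.

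Both families form trimeric channels from subunits of the same family, alone or mixed. P2X3 is a known feature of small sensory neurons of the dorsal root ganglion (DRG), where it forms channels alone or with P2X2, and ATP from injured tissue excites nociceptors through them. ASIC3 is likewise known from sensory neurons, where it responds to the acidity of ischemic or inflamed tissue, whereas ASIC1 and ASIC2 are abundant in the central nervous system. P2X4 and P2X7 are known from microglia and macrophages, among other cells.

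The libraries held 17699904 to 18678170 counts, and 3 counts in a library, taken as the lowest detectable level, correspond to 0.161 to 0.169 counts per 1000000 counts of the library (CPM). Only counting error is covered by this floor. Dok6 itself stood at 17.8, 11.9 and 17.5 CPM in the controls against 7.26, 5.78 and 7.15 CPM in the mutants, with a log2 fold change of -1.23 (SE 0.20, adjusted p = 0.0118). The genotypes did not overlap and differed in the direction the labels give, although counts over the whole gene do not show exon 3 itself. The data go against a sample of nerve alone. Slc6a5, the glycine transporter of inhibitory neurons in the spinal cord and brainstem, was at 177 to 264 CPM and Gfap, an astrocyte filament, at 189 to 555 CPM over the 6 libraries. Dhh, the hedgehog ligand that Schwann cells make, was at 1.15, 0.401 and 0.686 CPM in the controls and at 4.46, 22.3 and 6.68 CPM in the mutants. Of the 11 Schwann cell markers followed, Dhh had the lowest control mean (0.745 CPM) and Sox10 the highest (71.1 CPM). Sox10 overlapped between the genotypes, at 42.2 to 108 CPM against 49.4 to 144 CPM, whereas 7 of the 11 rose. In such bulk samples, fewer cells of a type and less RNA per cell cannot be told apart.

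Cell type marker lists were read against the shares of all genes tested, of which 8.62% rose and 6.01% fell at an adjusted p under 0.05. Of 14 DRG sensory neuron markers, 10 rose, and their summed level was 385 to 418 CPM in the controls and 552 to 1230 CPM in the mutants. Of 11 Schwann cell markers, 7 rose (101 to 158 CPM against 269 to 3800 CPM in sum, highest in mutant mouse 2), and of 9 skeletal muscle markers, 7 rose (16.0 to 24.6 CPM against 112 to 596 CPM), with 5 of the list under 1 CPM in every control. Of 4 fibroblast markers, 2 rose (207 to 500 CPM against 825 to 1350 CPM), and of 5 endothelial markers, 2 rose (138 to 230 CPM against 239 to 331 CPM). Of 4 erythroid markers, 3 fell (418 to 710 CPM against 72.3 to 277 CPM), and of 4 motor neuron markers, 1 fell (95.2 to 122 CPM against 77.0 to 106 CPM). Markers of the central nervous system summed to 2700 to 3410 CPM in the controls and 2380 to 3710 CPM in the mutants, with 1 of 13 higher, the glutamate transporter Slc17a7, and 1 lower, the vesicular GABA and glycine transporter Slc32a1, both near the shares of all genes. The part of the marker differences in the results on the channel genes was not tested.

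RefSeq promoters on GRCm38.p6, which run from 250 bases before to 50 bases after a transcription start, were found for 6 of the 10 genes, P2rx4, P2rx6, P2rx7, Asic1, Asic2 and Asic3, with 8 starts in all. Those of Asic3, P2rx7 and P2rx6 are shown because the RNA of these genes passed the test, and that of Asic1 because it was the most abundant of the channel genes and did not. They lie on the plus strand at chr5:24413201-24413500 (Asic3), chr5:122643677-122643976 (the first of 2 starts of P2rx7), chr16:17561635-17561934 (P2rx6) and chr15:99691974-99692273 (Asic1). The annotated Asic1 gene starts at base 99670368 of chromosome 15, so its window lies inside the gene, at an internal start. Capitals mark matches on either strand to 4 short motifs, TGTGGT (bound by RUNX factors), ATNNNTAAT (POU4F factors), ACAAAG (SOX factors) and GAGGAA (ETS factors).
Asic3: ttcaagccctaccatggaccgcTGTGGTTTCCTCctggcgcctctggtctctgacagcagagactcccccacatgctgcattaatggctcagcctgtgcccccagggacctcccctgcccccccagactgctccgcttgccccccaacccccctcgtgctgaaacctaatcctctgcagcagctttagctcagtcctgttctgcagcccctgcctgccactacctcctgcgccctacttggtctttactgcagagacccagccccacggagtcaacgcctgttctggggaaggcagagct
P2rx7: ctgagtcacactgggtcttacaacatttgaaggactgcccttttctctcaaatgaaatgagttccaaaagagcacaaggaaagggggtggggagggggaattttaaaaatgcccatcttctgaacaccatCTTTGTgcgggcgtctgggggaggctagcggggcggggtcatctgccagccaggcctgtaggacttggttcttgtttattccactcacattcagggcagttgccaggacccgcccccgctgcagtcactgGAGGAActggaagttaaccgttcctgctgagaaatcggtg
P2rx6: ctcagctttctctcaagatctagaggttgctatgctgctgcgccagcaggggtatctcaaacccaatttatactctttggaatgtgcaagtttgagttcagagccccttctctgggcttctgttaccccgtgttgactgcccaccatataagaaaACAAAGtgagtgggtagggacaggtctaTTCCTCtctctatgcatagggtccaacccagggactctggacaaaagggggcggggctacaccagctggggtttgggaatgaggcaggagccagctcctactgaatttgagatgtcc
Asic1: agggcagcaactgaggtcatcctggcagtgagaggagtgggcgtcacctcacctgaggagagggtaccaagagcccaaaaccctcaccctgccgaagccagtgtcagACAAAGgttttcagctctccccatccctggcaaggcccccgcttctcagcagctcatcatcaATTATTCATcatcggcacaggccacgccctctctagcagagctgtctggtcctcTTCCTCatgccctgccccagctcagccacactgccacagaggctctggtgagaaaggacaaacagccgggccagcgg
The Asic3 promoter held TGTGGT at bases 23 to 28, counted from the first base shown, directly followed by GAGGAA on the other strand at bases 29 to 34, with no base in common. TGTGGT was found in 1 of the 8 channel promoters, that of Asic3, and in 16.8% of the 32851 promoters of the table. ATNNNTAAT was also found in 1, that of Asic1, against 9.60% of all promoters. ACAAAG was found in 3 of the 8 (18.7% of all promoters) and GAGGAA in 6 of the 8 (28.3% of all promoters). These matches describe letters, not binding.

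P2rx3 showed the largest difference of the 10 genes. It lies on the minus strand at chr2:84998583-85037462 (GRCm38) and has 5 annotated transcripts. Its counts were 41, 41 and 26 in the control mice and 216, 649 and 705 in the mutants, which is 2.35, 2.35 and 1.49 CPM against 11.2, 35.4 and 37.4 CPM. Every mutant lay above every control, and mutant mouse 1 lay well below the other mutants. The mean rose from 2.06 ± 0.499 CPM to 28.0 ± 14.6 CPM (SD, n = 3 mice each), a log2 fold change of 3.76 (SE 0.46, 95% interval 2.70 to 4.81, adjusted p = 0.00716). Without control mouse 2 the log2 fold change was 3.86 and the adjusted p was 0.0519. P2rx3 shares 51 exonic bases, 1.83% of its exons, with Ssrp1 on the other strand, and whether strand was used in counting is not given in the sources used here, although the methods of the study name a directional library kit. Ssrp1, which codes for a subunit of the FACT histone chaperone, ranged from 96.8 to 104 CPM in the controls and from 102 to 108 CPM in the mutants.

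Asic3, the acid-sensing subunit known from sensory neurons, rose less. It lies on the plus strand at chr5:24413392-24417835, and its counts were 23, 26 and 12 in the controls and 40, 133 and 139 in the mutants. These correspond to 1.32, 1.49 and 0.686 CPM against 2.07, 7.25 and 7.37 CPM. The genotypes did not overlap, but mutant mouse 1 lay close to the highest control. The mean rose from 1.17 ± 0.424 CPM to 5.56 ± 3.02 CPM (SD, n = 3 mice each), with a log2 fold change of 2.25 (SE 0.51, 95% interval 1.09 to 3.41, adjusted p = 0.0256). The adjusted p was 0.063 without control mouse 1, 0.0951 without control mouse 2, 0.0667 without control mouse 3 and 0.0735 without mutant mouse 2. With limma voom it was 0.0719. Without mutant mouse 3 the adjusted p was 0.0451 and the log2 fold change 1.99.

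**Figure D1:**
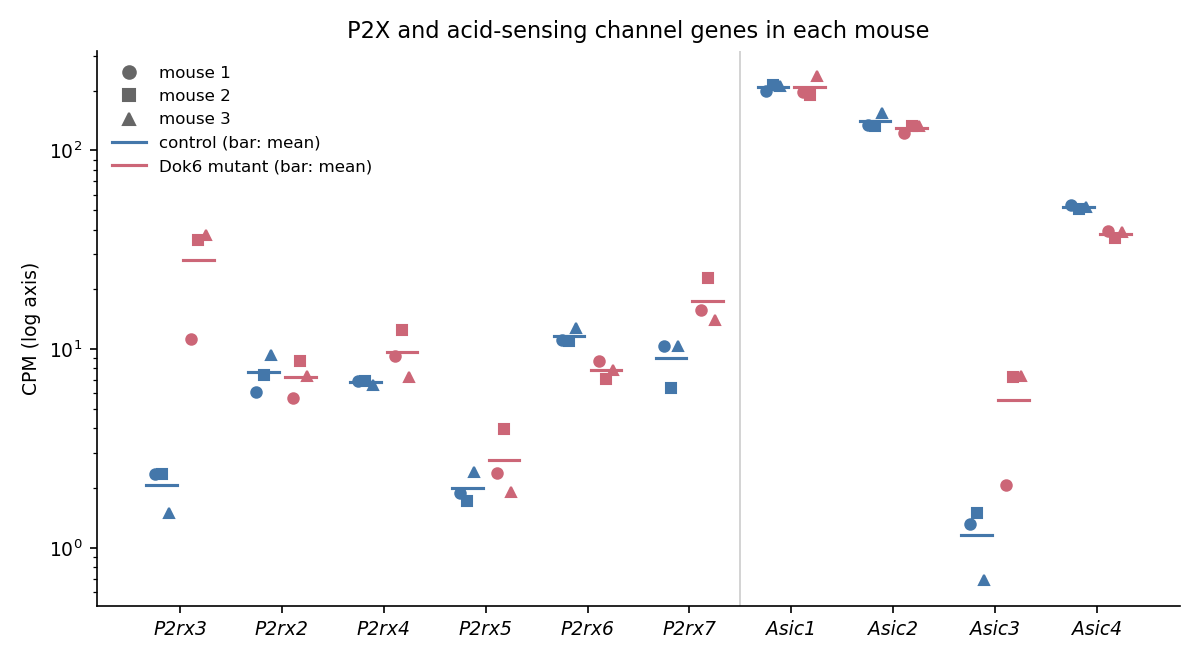
Level of each channel gene in each mouse, in CPM on a log axis, with controls in blue, Dok6 mutants in red, a symbol for each mouse number and a bar at the mean. P2rx3 is at 1.49 to 2.35 CPM in the controls and 11.2 to 37.4 CPM in the mutants, while Asic1 and Asic2 overlap between the genotypes above 100 CPM.

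With the thresholds of the study, an adjusted p under 0.05 and a log2 fold change above 2 in size, P2rx3 and Asic3 were the 2 of 10 genes called, both higher, where 1.08% of all genes tested were called higher. At an adjusted p under 0.05 alone, 3 of 10 were higher and 2 of 10 lower, where 8.62% of all genes tested were higher and 6.01% lower. In 4 of 10 every mutant lay above every control, and in 2 of 10 below, where these shares were 19.6% and 18.7% of all genes tested. The median log2 fold change was 0.23 over the 10 genes and 0.01 over all genes tested. The 10 genes were chosen with earlier results of these data known, so these shares are descriptions only. Without control mouse 2, neither gene was called, and without control mouse 1, control mouse 3, mutant mouse 2 or mutant mouse 3, P2rx3 was the 1 gene called.

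P2rx2, whose subunit joins P2X3 in mixed channels of sensory neurons, did not move with P2rx3. The gene lies on the minus strand at chr5:110339812-110343212. It was at 6.08, 7.45 and 9.38 CPM in the controls and at 5.71, 8.67 and 7.37 CPM in the mutants. The genotypes overlapped, with a log2 fold change of -0.08 (SE 0.22, adjusted p = 0.84) and a 95% interval of -0.58 to 0.43. Per kilobase of gene length, the ratio of P2rx3 to P2rx2 was 0.357, 0.291 and 0.146 in the controls and 1.81, 3.77 and 4.68 in the mutants. P2rx2 was thus the more abundant of the pair in every control and P2rx3 in every mutant. These are levels in bulk samples, and whether the RNAs of the pair came from the same cells was not tested.

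P2rx7 and P2rx4 lie next to each other on the plus strand of chromosome 5, 16.1 kb apart. P2rx7 (chr5:122643911-122691432), the subunit whose prolonged activation opens a large pore and drives the release of interleukin-1β, was at 10.4, 6.36 and 10.4 CPM in the controls and at 15.8, 22.7 and 14 CPM in the mutants. The genotypes did not overlap, with the lowest control in mouse 2 and the highest mutant in mouse 2. The log2 fold change was 0.95 (SE 0.25, 95% interval 0.39 to 1.51, adjusted p = 0.0375). P2rx7 was past the threshold in only 1 of the 6 fits that left out a mouse, the one without mutant mouse 3 (adjusted p = 0.0294). In the other 5 the adjusted p was 0.063, 0.126 and 0.0588 without control mice 1, 2 and 3, and 0.0721 and 0.108 without mutant mice 1 and 2.

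P2rx4 (chr5:122707544-122729738), a subunit known from microglia and endothelium, was at 6.94, 6.88 and 6.58 CPM in the controls and at 9.28, 12.5 and 7.21 CPM in the mutants. Every mutant lay above every control, mouse 3 by little, and the log2 fold change of 0.51 (SE 0.21, 95% interval 0.02 to 0.99) did not pass the test (adjusted p = 0.133). Without mutant mouse 3 it was 0.68 with an adjusted p of 0.0454. Of the 11 microglia and macrophage markers, 1 rose, Tmem119, a share near the 8.62% of all genes tested, and their sum was 137 to 168 CPM in the controls and 171 to 216 CPM in the mutants. The part of these markers, and of the endothelial ones, in the values of P2rx7 and P2rx4 was not tested.

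Of the remaining P2X genes, P2rx6 fell and P2rx5 did not pass the test. P2rx6 (chr16:17561885-17577800, plus strand), whose subunit works mainly in mixed channels, was at 11.1, 11.0 and 12.8 CPM in the controls and at 8.77, 7.09 and 7.84 CPM in the mutants. All mutants lay below all controls, with a log2 fold change of -0.55 (SE 0.15, 95% interval -0.90 to -0.21, adjusted p = 0.0436). This call did not hold in any of the 6 fits that left out a mouse, with adjusted p of 0.0745, 0.118 and 0.10 without control mice 1, 2 and 3 and 0.0741, 0.138 and 0.0682 without mutant mice 1, 2 and 3. P2rx6 shares 554 exonic bases, 13.9% of its exons, with the amino acid transporter gene Slc7a4 on the other strand, so its counts are uncertain. Slc7a4 was at 32.6 to 36.8 CPM in the controls and 37.1 to 37.7 CPM in the mutants. P2rx5 (chr11:73160421-73172685, plus strand) was at 1.89, 1.72 and 2.40 CPM against 2.39, 3.98 and 1.91 CPM, and the genotypes overlapped. Its log2 fold change was 0.46 (SE 0.33, 95% interval -0.29 to 1.21, adjusted p = 0.363).

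Of the other acid-sensing genes, Asic4 fell and the most abundant ones did not pass the test. Asic4 (chr1:75450436-75474343, plus strand), whose protein gives no acid-gated current on its own, was at 53.0, 50.5 and 51.9 CPM in the controls and at 39.5, 36.2 and 38.8 CPM in the mutants. The spread within each genotype was small and the genotypes did not overlap. The log2 fold change was -0.44 (SE 0.09, 95% interval -0.63 to -0.25, adjusted p = 0.018), and the adjusted p was 0.0781 without control mouse 2 and 0.0633 without mutant mouse 2. Asic4 shares 493 exonic bases, 18.1% of its exons, with Gm37264, a gene on the other strand at 0.218 to 0.860 CPM over the 6 libraries.

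Asic1 (chr15:99670368-99701130, plus strand), the main subunit of acid-gated currents in central neurons, was at 200, 214 and 210 CPM in the controls and 196, 191 and 237 CPM in the mutants. Its log2 fold change was 0.00 (SE 0.10, 95% interval -0.22 to 0.22, adjusted p = 0.998). Asic2 (chr11:80880169-81968457, minus strand), which forms mixed channels with ASIC1 and ASIC3, was at 134, 132 and 155 CPM against 123, 132 and 132 CPM. Its log2 fold change was -0.12 (SE 0.08, 95% interval -0.31 to 0.08, adjusted p = 0.362). Both genes overlapped between the genotypes.

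**Figure D2:**
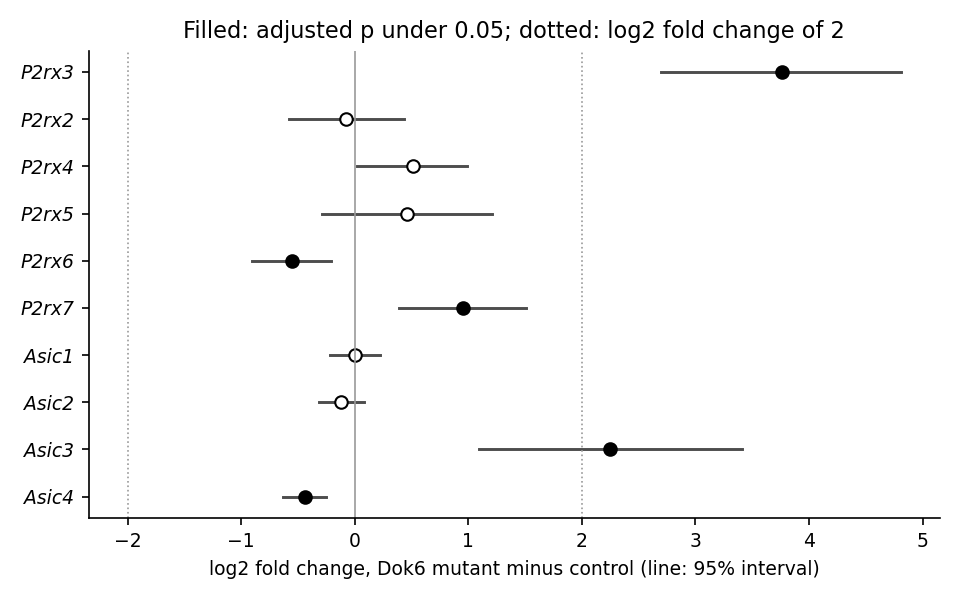
Log2 fold change of each channel gene, Dok6 mutant minus control (x axis), with its 95% interval as a line, filled points for an adjusted p under 0.05 and dotted lines at log2 fold changes of 2 and -2. P2rx3 at 3.76 and Asic3 at 2.25 lie beyond the dotted line, and Asic1 at 0.00 and P2rx2 at -0.08 lie at the centre.

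To compare genes with each other, CPM were divided by gene length in kilobases. In the controls the order was Asic1 (36.2 ± 1.28 CPM per kb), Asic2 (32.9 ± 2.98), Asic4 (19.0 ± 0.451), P2rx2 (2.97 ± 0.643), P2rx6 (2.91 ± 0.248), P2rx7 (1.52 ± 0.393), P2rx4 (0.968 ± 0.0279), P2rx5 (0.837 ± 0.148), P2rx3 (0.740 ± 0.179) and Asic3 (0.481 ± 0.175), each the mean ± SD of 3 mice in CPM per kb. Neighbours whose ranges overlapped were Asic1 and Asic2, P2rx2 and P2rx6, and each pair in turn from P2rx4 down to Asic3. In the mutants Asic1, Asic2 and Asic4 again came first (36.2 ± 4.41, 30.3 ± 1.19 and 14 ± 0.648 CPM per kb). P2rx3, the ninth in the controls, came next, with a range of 4.02 to 13.4 CPM per kb that reached that of Asic4, at 13.3 to 14.5. Below it, P2rx7, P2rx2, Asic3, P2rx6, P2rx4 and P2rx5, with means of 2.93, 2.82, 2.30, 1.98, 1.38 and 1.15 CPM per kb, overlapped each with the next.

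The summed P2X level per length was 9.51, 9.26 and 11.1 CPM per kb in the controls and 13.4, 25.1 and 22.4 in the mutants, 2.04-fold higher with no overlap (two-sided exact permutation test, p = 0.1, the smallest that 3 against 3 mice can give). P2rx3 made up 8.87, 9.10 and 4.82% of that sum in the controls and 30.0, 50.6 and 59.8% in the mutants. The shares of P2rx6 (29.3 ± 0.450% against 10.7 ± 4.96%) and P2rx2 (29.7 ± 4.28% against 14.3 ± 2.01%) were lower in every mutant, and since shares sum to a whole, a rise of P2rx3 lowers the others. The summed ASIC level was 86.1, 87.4 and 92.1 CPM per kb against 78.4, 80.5 and 89.4 (two-sided exact permutation test, p = 0.3). Asic3 made up 0.633, 0.704 and 0.308% of it in the controls and 1.09, 3.72 and 3.40% in the mutants, so its rise hardly touched the sum. The shares did not overlap for P2rx2, P2rx3, P2rx5, P2rx6, Asic3 and Asic4, and each of these gave p = 0.1 in the same exact test.

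**Figure D3:**
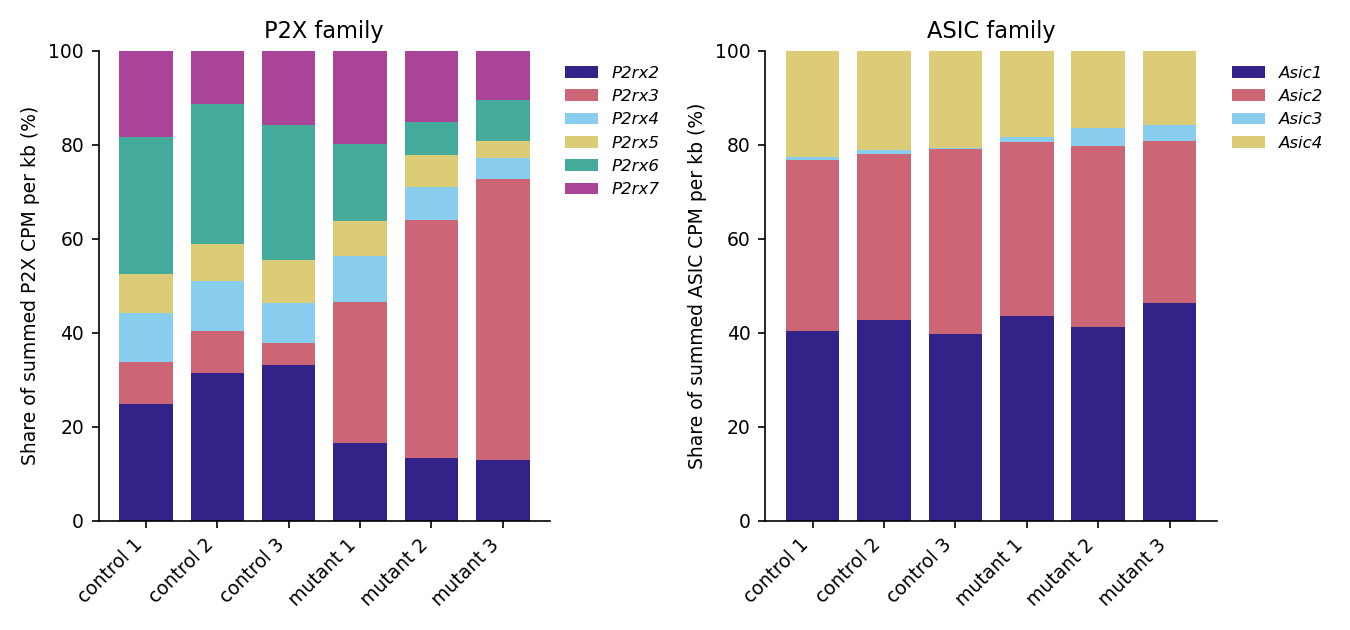
Share of each gene in the summed level of its family (y axis, percent of CPM per kb) in each of the 6 mice, with P2X on the left and ASIC on the right. P2rx3 grows from at most 9.10% in the controls to at least 30.0% in the mutants, whereas Asic1 and Asic2 make up most of the ASIC sum in every mouse.

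P2rx3 and Asic3 were then set beside sensory neuron markers in each mouse. On the log2 scale, the level of P2rx3 relative to the summed sensory markers was -7.20, -7.08 and -7.61 in the controls and -5.56, -5.10 and -4.98 in the mutants, a difference of 2.08 with no overlap (two-sided exact permutation test, p = 0.1). For Asic3 the difference was 0.50 and the genotypes overlapped (p = 0.2 in the same exact test). With 4 channel and receptor genes of nociceptors, Scn10a and Trpv1 among them, left out of the sum, the differences were 2.35 for P2rx3 and 0.76 for Asic3, both without overlap (p = 0.1 in the same exact test). Among the most abundant genes in this sum are Prph, an intermediate filament of peripheral neurons, which rose, and Pou4f1, Prrxl1 and Tac1, which are also expressed in the spinal cord. These last did not pass the test. Ratios to single genes of the list went either way. The ratio of P2rx3 to Prph in CPM was 0.0142, 0.0203 and 0.0119 in the controls and 0.0614, 0.0846 and 0.085 in the mutants, with every mutant higher. To Scn10a, a sodium channel of nociceptors, it was 0.759, 0.804 and 1.24 in the controls and 0.244, 0.212 and 0.28 in the mutants, with every mutant lower. The ratio of P2rx3 to Avil, an actin-binding protein of sensory neurons, was 0.376, 0.451 and 0.356 in the controls and 0.401, 0.374 and 0.415 in the mutants, with overlap in these plain ratios. On the log2 scale with 0.5 CPM added to both, as for the sums, the difference was -0.15 with every mutant below every control, a separation that appears only with the added 0.5 CPM. The ratio of Asic3 to Avil was 0.211, 0.286 and 0.164 in the controls and 0.0742, 0.0767 and 0.0818 in the mutants, with every mutant lower. These genes were chosen after the data were seen, Avil because its pattern was nearest to that of P2rx3, so its steady ratio follows from that choice.

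**Figure D4:**
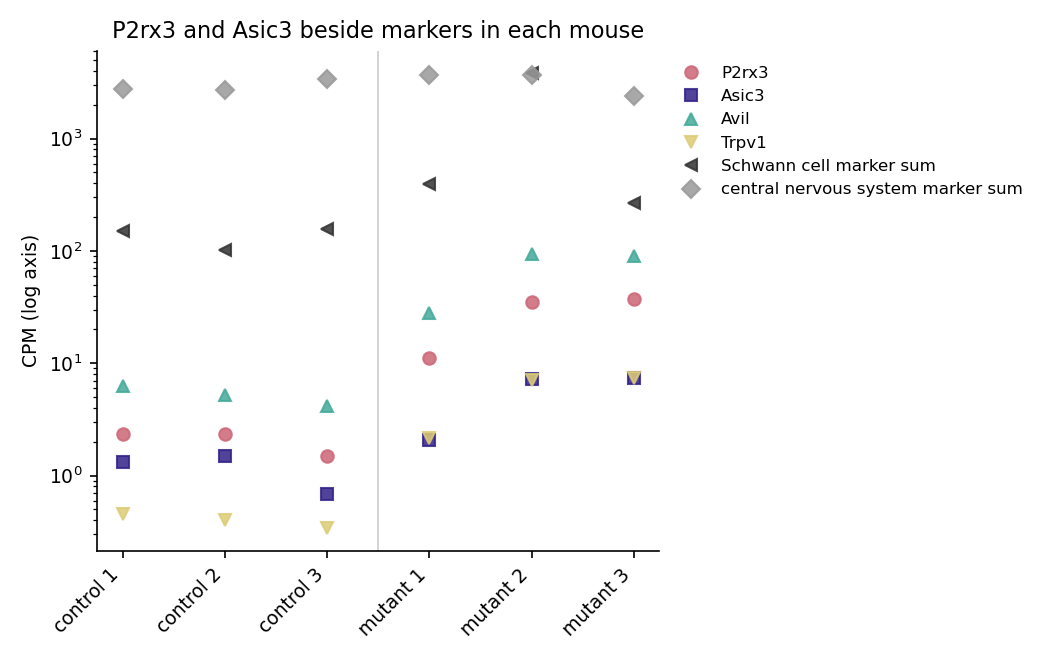
Levels of P2rx3, Asic3, the sensory neuron genes Avil and Trpv1, and the summed Schwann cell and central nervous system markers in each mouse, in CPM on a log axis. Avil and Trpv1, which were picked as near to P2rx3 in pattern, have mutant mouse 1 as the lowest mutant as P2rx3 does, while the Schwann cell sum peaks at 3800 CPM in mutant mouse 2.

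Among the 5 genes whose log2 CPM over the 6 libraries followed P2rx3 most closely were Avil (Pearson's r = 0.998), Trpv1, the heat and capsaicin channel (r = 0.997), Piezo2, a mechanically gated channel (r = 0.997), and Antxr2, an anthrax toxin receptor (r = 0.996). Their log2 fold changes were 3.76, 3.76, 2.50 and 2.80. Trpv1 was at 0.459, 0.401 and 0.343 CPM in the controls and 2.18, 7.04 and 7.37 CPM in the mutants, with the low mutant mouse 1 that P2rx3 also showed. The nearest genes to Asic3 were Rab3d, Dok4, Frmd3, Slc52a3 and Lrrc75b (r = 0.993, 0.993, 0.992, 0.991 and 0.990), none of which is on the sensory list. The gene nearest to P2rx7 was S100a6, a calcium-binding protein (r = 0.997), followed by Itgb2, the β2 integrin of leukocytes (r = 0.993), Gm26694, Dph6 and Mical1. P2rx6 was followed by Zkscan6 and Rgs6, and Asic4 by Epc1 and Zbtb6 (r = 0.997, 0.993, 0.996 and 0.995). These correlations are descriptions over 2 groups of 3 mice each. The genes named for likeness did not all pass the test between the genotypes. Lrrc75b (log2 fold change 0.10, adjusted p = 0.353), Zkscan6 (-0.42, adjusted p = 0.0808) and Itgb2 (0.80, adjusted p = 0.115) did not. Frmd3, Slc52a3, Dph6, Mical1 and Rgs6 did not pass either, with adjusted p of 0.0598, 0.0587, 0.0846, 0.0533 and 0.0919.

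Other genes linked to these channels were examined in lists of family relatives, ATP loading and release, ectonucleotidases, P2Y receptors, adenosine receptors, ASIC partner proteins and the P2X7 inflammasome. Of the 45 genes in these lists, 35 were tested, 7 rose and 2 fell, where 8.62% of all genes tested rose and 6.01% fell, with a median log2 fold change of 0.52 over the 35 against 0.01 over all genes tested. Without control mouse 1, control mouse 2 or mutant mouse 2, the number past the test was 5, 1 and 5 in place of 9. Among enzymes that break down extracellular nucleotides, 3 of 8 tested rose. Acpp, the acid phosphatase that turns AMP into adenosine on nociceptors, was at 2.30, 2.41 and 1.72 CPM in the controls and 16.0, 40.0 and 24.1 CPM in the mutants, with a log2 fold change of 3.64 (SE 0.35, adjusted p = 0.00433). Entpd2, an ATPase of glia (log2 fold change 1.83, adjusted p = 0.00998), and Entpd1, the CD39 ectonucleotidase of microglia and endothelium (1.18, adjusted p = 0.00716), rose too. The genotypes did not overlap for any of the 3.

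Among the P2Y receptors, the G protein-coupled receptors for nucleotides, 2 of 6 tested rose. P2ry2 was at 0.689, 0.688 and 1.03 CPM in the controls and 2.49, 8.40 and 3.92 CPM in the mutants (log2 fold change 2.61, adjusted p = 0.016), and P2ry1 rose by a log2 fold change of 1.13 (adjusted p = 0.0273). Both were highest in mutant mouse 2, as were the sums of the Schwann cell and of the sensory neuron markers. Of 3 adenosine receptors tested, 1 rose, Adora2a (log2 fold change 0.87, adjusted p = 0.0324). Of 6 genes for the loading and release of ATP, 1 fell. This was Slc17a9, the vesicular nucleotide transporter, which was at 1.20, 1.26 and 1.26 CPM in the controls and 0.104, 0.491 and 0.159 CPM in the mutants (log2 fold change -2.29, adjusted p = 0.0259), with mutant mice 1 and 3 at or under the floor of 3 counts.

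Of 6 proteins known to bind or regulate ASICs, S100a10, an annexin partner, rose (log2 fold change 0.69, adjusted p = 0.0424) and Stoml1, a stomatin-like protein, fell (-0.27, adjusted p = 0.0481). Stoml3, a stomatin-like protein of mechanoreceptors, was at 0.743 to 1.38 CPM against 0.571 to 1.11 CPM and did not pass the test. None of the 5 tested genes of the inflammasome pathway that P2X7 activates passed the test, and Gsdmd, which forms the pore through which interleukin-1β leaves, came nearest (log2 fold change 1.14, adjusted p = 0.079). Of the family relatives, P2rx1, the P2X subunit of smooth muscle and platelets, was under the filter, at 0.0574, 0.229 and 0.229 CPM in the controls and 1.97, 0.382 and 0.265 CPM in the mutants. Asic5 had no count in any library, and Scnn1a, a subunit of the epithelial sodium channel, had a log2 fold change of -0.25 (adjusted p = 0.508).

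**Figure D5:**
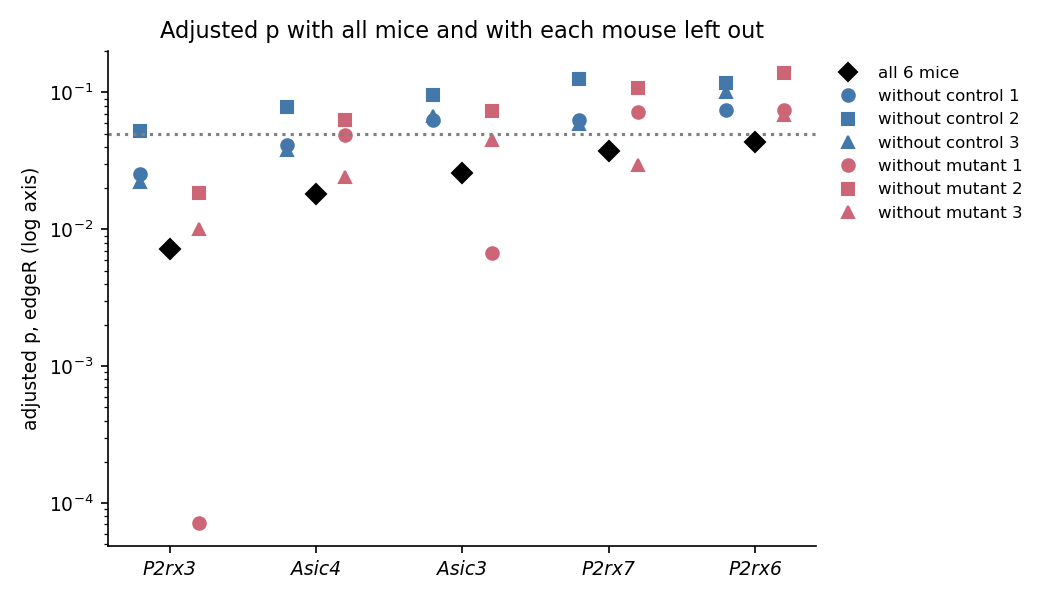
Adjusted p of edgeR's quasi-likelihood test (log axis) for the 5 channel genes past the threshold of 0.05 (dotted line), with all 6 mice (diamonds) and with each control (blue) or mutant (red) left out. P2rx3 rises above the line only without control mouse 2 (0.0519), while P2rx6 lies above it whichever mouse is left out.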

How the data were processed

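RNA of P3 sciatic nerve was sequenced on an Illumina NovaSeq from 3 control and 3 Dok6 mutant mice with a NEBNext Ultra kit, which the methods of the study call Directional and the labels do not. The authors deposited whole-number counts per gene, not normalized, with a gene length. The labels name build mm10, and the aligner, counter and strand setting are not given in the sources used here. Columns were matched to mice by genotype and number in the labels. Genotypes were compared with edgeR 4.0.16 (R 4.3.3, filterByExpr, TMM, quasi-likelihood test, Benjamini-Hochberg adjustment over 17099 genes). CPM are TMM-scaled, and standard errors derive from the F statistic. Called genes had an adjusted p under 0.05 and a log2 fold change above 2 in size, as in the study, which used DESeq2. Levels relative to summed markers used log2 of CPM plus 0.5.

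The alternatives were DESeq2 1.42.0, limma voom 3.58.1, other scalings, filters and thresholds, the replicate number as a block, and leaving out each mouse. On simulated counts for these libraries, in which 200 genes changed by a log2 fold change of 2.5 in size, edgeR recovered 200 of the 200 and passed 7 unchanged genes among 16867 tested at an adjusted p under 0.05. The simulation gave every gene the same dispersion and changed only genes above a set mean count. It therefore does not show how genes with few counts or a wide spread between mice fare. No libraries agreed within sampling noise (chi-square per degree of freedom of 8.86 or more). Libraries are separate mice. Positions and overlaps come from GENCODE M21 on GRCm38, the same assembly as mm10, which holds 54409 of the 54532 identifiers. BLAST 2.17.0 served to find transcripts nearly identical to those of the channel genes.

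The channel genes and all lists were chosen with earlier results of these data known. All 10 channel genes are named. Named besides them are up to 3 genes of each pathway list with an adjusted p under 0.05, P2rx1 and Asic5, the 5 genes of at least 1 CPM nearest in pattern to each channel gene past the threshold, and tested genes within 500 kb with an adjusted p under 0.05. Stoml3, Gsdmd, Scnn1a, Pou4f1, Prrxl1, Tac1 and single markers were named after their values were seen. Some genes that the rule would name are not reported here. The other assays of the study were not analysed here.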

Additional observations from a re-analysis of the deposited data

How the results depend on the processing

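Of the 10 channel genes, 2 were called with all mice, 1 with limma voom, 1 with the replicate block and 5 without a fold change threshold, and leaving out each mouse gave 0 to 2. The number higher at an adjusted p under 0.05, 3 in all mice, was 1 with the replicate block and 0 to 4 when each mouse was left out. The number lower, 2 in all mice, was 1 without a filter, 0 with the replicate block and 0 to 1 when each mouse was left out. Of the pathway genes, 9 passed with all mice, 4 with the replicate block and 1 to 10 when each mouse was left out. The mouse numbers were not taken as pairs, because no source says that same-numbered mice shared a litter. The deviations of same-numbered mice from their group means correlated at -0.01, -0.17 and -0.24, which with so few mice cannot decide the pairing. The replicate block took the number of genes called higher over the whole table at an adjusted p under 0.05 from 1474 to 432, and the number lower from 1028 to 130. Leaving out control mouse 2 took these numbers to 56 and 12. The cause was not tested. P2rx3 kept an adjusted p under 0.05 in 12 of 13 alternatives, Asic4 in 10, Asic3 and P2rx7 in 7 each and P2rx6 in 5, all in the same direction. With the replicate block in edgeR, the adjusted p was 0.0255 for P2rx3, 0.0684 for Asic3, 0.104 for P2rx7, 0.103 for P2rx6 and 0.0613 for Asic4.

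Small differences changed sign. Asic1 was 0.00 with upper-quartile scaling, 0.01 with at least 10 counts in every library and -0.11 to 0.06 with each mouse left out, and P2rx2 was -0.22 to 0.10 with each mouse left out (log2 fold changes). The share of P2rx7 in the P2X sum changed by -0.095 percentage points per length, by 1.48 without division by length and by -2.42 to 2.24 with each mouse left out, and that of Asic2 in the ASIC sum by -1.37 to 0.761. On the log2 scale, relative to Avil alone in place of the summed sensory markers, P2rx3 differed by -0.15 and Asic3 by -1.74, an alternative added after seeing the data, in which Avil was picked for its likeness to P2rx3 and the plain ratios of P2rx3 to Avil overlapped. Asic3 was at 12 counts in control mouse 3, the lowest count of any channel gene, so its fold change rests on few reads.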

Other observations

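Genes within 500 kb of each channel gene were also examined, where 8.62% of all genes tested rose and 6.01% fell, with a median log2 fold change of 0.01. Around P2rx3, 5 of 21 tested genes rose and none fell, with a median log2 fold change of 0.54. The largest of these was Slc43a3, a purine base transporter 40.1 kb away (log2 fold change 1.97, adjusted p = 0.00787), followed by Aplnr, the apelin receptor of endothelium (1.07, adjusted p = 0.0402). Trpv1 lies 61.6 kb from P2rx5 and rose by a log2 fold change of 3.76 (adjusted p = 0.00809), whereas P2rx5 had a log2 fold change of 0.46 (adjusted p = 0.363). Des, which codes for the muscle filament desmin, lies 81.9 kb from Asic4 and rose by a log2 fold change of 3.95 (adjusted p = 0.00929), while its neighbour Asic4 fell. Around Asic3, 2 of 25 rose, a share near that of all genes, and 3 fell. The anion exchanger Slc4a2, 6.0 kb away, was among those that rose (log2 fold change 0.93, adjusted p = 0.0123), and Klhl7, 252.6 kb away, among those that fell (-0.50, adjusted p = 0.00787). Around P2rx2, Gm15446 at 395.9 kb fell by 5.70 on the log2 scale (adjusted p = 0.000236), and P2rx2 itself did not pass the test. Orai1, the pore subunit of the store-operated calcium channel, lies 285.3 kb from P2rx4 and rose by a log2 fold change of 0.69 (adjusted p = 0.0185).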
